A study of Drosophila melanogaster with 5 samples.

Results

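Of the 259 genes printed from the subtracted library, 105 carried no name other than their CG number, the serial number of a computed gene. Of these, 42 were chosen as dim in syncytial embryos. The 42 genes were selected on their S2-3 signal. A gene entered the set when no more than 1 of the 4 S2-3 membranes held a spot of it that reached the local background mean plus 1 background SD with a net signal above 0, which is called passing here. A gene printed on only 1 S2-3 membrane entered whatever its signal. The rule left out 10 further CG genes by number, and 53 unnamed genes were detected on more S2-3 membranes. No S2-3 membrane held a passing spot of 11 of the 42 genes, and 1 membrane did for the other 31, namely D for 18, A for 12 and B for CG7861 alone. On the scale of the rule, the distance of the second-brightest S2-3 membrane above background in background SDs, CG8654 (0.957), CG4440 (0.868), CG7071 (0.863) and CG7861 (0.862) lay just inside, and CG6954 (1.07), CG14641 (1.08), CG14915 (1.09) and CG32801 (1.14) lay just outside.

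The RNA came from whole Canton S wild-type embryos of 5 intervals. The first 4 were the syncytial blastoderm (S2-3), the cellular blastoderm (S5), gastrulation (S6-7) and germ band elongation (S8-9). The last was S10-12, with the germ band extended and, by stage 12, in retraction. The labels name no mutant, transgene or drug, flies were kept at 22 °C, and the labels give 100 embryos for an RNA extraction. Each interval has 1 deposited sample of 4 nylon membranes, A to D, hybridized with 32P-labeled cDNA amplified from that RNA. Nothing states that the 4 membranes came from separate embryo collections, and the Methods name fewer labeling events than membranes. Every p below thus measures the spread between membranes, which may be technical. In whole embryos, fewer cells expressing a gene and less of its RNA per cell cannot be told apart.

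Early fly embryos live on RNA that the mother loads into the egg, while the nuclei divide in a shared cytoplasm. The zygotic genome becomes broadly active around cellularization, when membranes enclose the nuclei, and the cells then fold inward at gastrulation and stretch along the germ band. The library was built by subtracting syncytial from gastrula cDNA, so its clones were meant to be more abundant in the gastrula.

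Membranes A to C carried 295 library clones and membrane D 579, in duplicate spots. Levels are given as the log2 level, which is the log2 of the net signal of a gene over that of RP49, a ribosomal protein gene, taken as the median of its spots on the same membrane. The share of library spots that passed ran from 22.7% to 94.4% per membrane, and 224 of 230 RP49 spots passed. Membrane D stood apart. Over all library genes its log2 level was above the mean of A to C by a median of 1.80, 1.55, 1.39 and 1.59 from S5 to S10-12, and over the dim unnamed genes by 1.74, 1.40, 1.12 and 1.51. Of the solvent spots, which hold no DNA, 0.4% passed at S2-3 and 14.6%, 9.1%, 6.1% and 8.0% passed later, and the part of this in the passes of the dim genes was not tested. Of 30 spots per interval of the cellularization gene Sry-alpha, 16 passed at S5 and 17 at S6-7, and 4 or fewer in the other intervals. The other printed controls of early development had 34 spots per interval and less clear courses. From S2-3 to S10-12 snail passed on 0, 13, 6, 3 and 7 of them and fog on 0, 3, 0, 0 and 0. Twist passed on 5, 16, 19, 12 and 8, and tinman on 8, 9, 22, 22 and 17.

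Of the 42 genes, 34 were printed on all membranes and 8 on membrane D alone (CG10307, CG13333, CG16742, CG3502, CG40138, CG40159, CG4136 and CG5846). Those 8 had a single S2-3 membrane and so met the rule whatever their signal. Among them CG10307, CG13333, CG3502, CG40138 and CG4136 passed on it. The label dim does not hold for these on that membrane. A single clone stood for 32 of the 42 genes, 2 clones for 7, 3 for CG32982, 5 for CG4440 and 13 for CG13333. In RefSeq 37 matched by locus tag and 2 by an older tag (CG32043, and CG16971 to more than 1 entry), while CG40138, CG40159 and CG41458 did not match, and 15 now carry a symbol. These cover transcription and chromatin (Vsx1, sov, row, atos), junctions and the cell surface (bark, Lapsyn, ltl, Tmhs, Dtg), membrane traffic and autophagy (FAM21, Trs33, Atg17), tubulin folding (Tbce), mitochondrial translation (AspRS-m) and link. Of the 37, 9 lie on 2L, 10 on 2R, 6 on 3L, 9 on 3R and 3 on X, beside 47, 46, 51, 63 and 26 of 238 matched library genes. CG2915 lies next to the septin gene Sep5 and CG14111 next to the cellularization gene SNCF, both of which were also in the library.

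After the syncytial stage most of the dim genes came above background on most membranes. Of the 144 pairs of gene and membrane, 104 passed at S5 (72.2%) and 98 at S6-7 (68.1%), then 109 at S8-9 (75.7%) and, fewest, 91 at S10-12 (63.2%). The S2-3 value, 31 of 144 (21.5%), is what chose the genes. Over all library genes the shares were 57.6% at S2-3 and 83.0%, 84.0%, 80.5% and 75.3% later, so the dim genes stayed below the library in each interval. This gap lay on membranes A to C, where 241 of 408 pairs passed later (59.1%, against 75.5% over all library genes, 57.6% over the 59 other library genes dim at S2-3 and 80.5% over the 53 unnamed genes detected there). On membrane D 161 of 168 pairs passed (95.8%, against 95.4% over all library genes), and at S10-12 all 42 genes passed there.

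**Figure D1:**
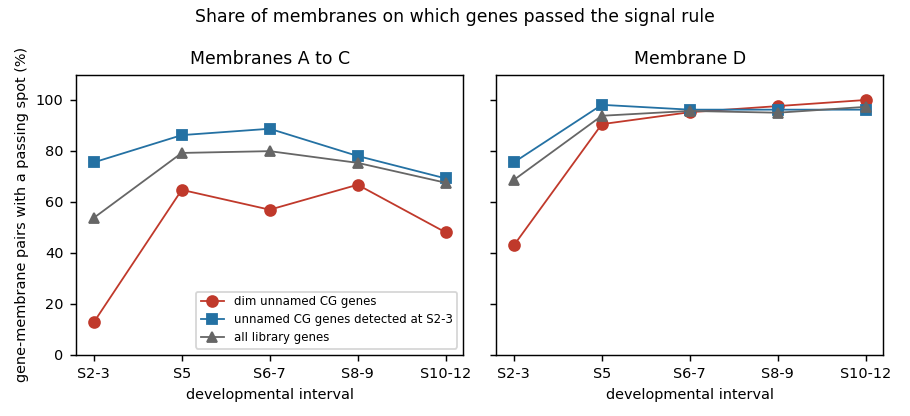
Share of gene-membrane pairs with a passing spot (y axis, percent) in the 5 intervals (x axis), on membranes A to C (left) and on membrane D (right), for the dim unnamed genes, the unnamed genes detected at S2-3 and all library genes. On D all dim genes passed at S10-12 (100%), while on A to C their share lies below both other groups in each interval.

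No gene of the 42 stayed below background throughout. Among the 34 printed on A to D, 15, 12, 17 and 8 passed on all 4 membranes from S5 to S10-12, and CG7861 alone passed on 0 membranes of a later interval, S8-9. Of the 16 later membranes CG12026, CG32043 and CG4440 passed on all. The dimmest were CG16971, CG2915 and CG7861, each on 4 of 16 (25.0%), and CG14111 on 31.2%. The 8 genes printed on D alone passed on all 4 of their later membranes.

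**Figure D2:**
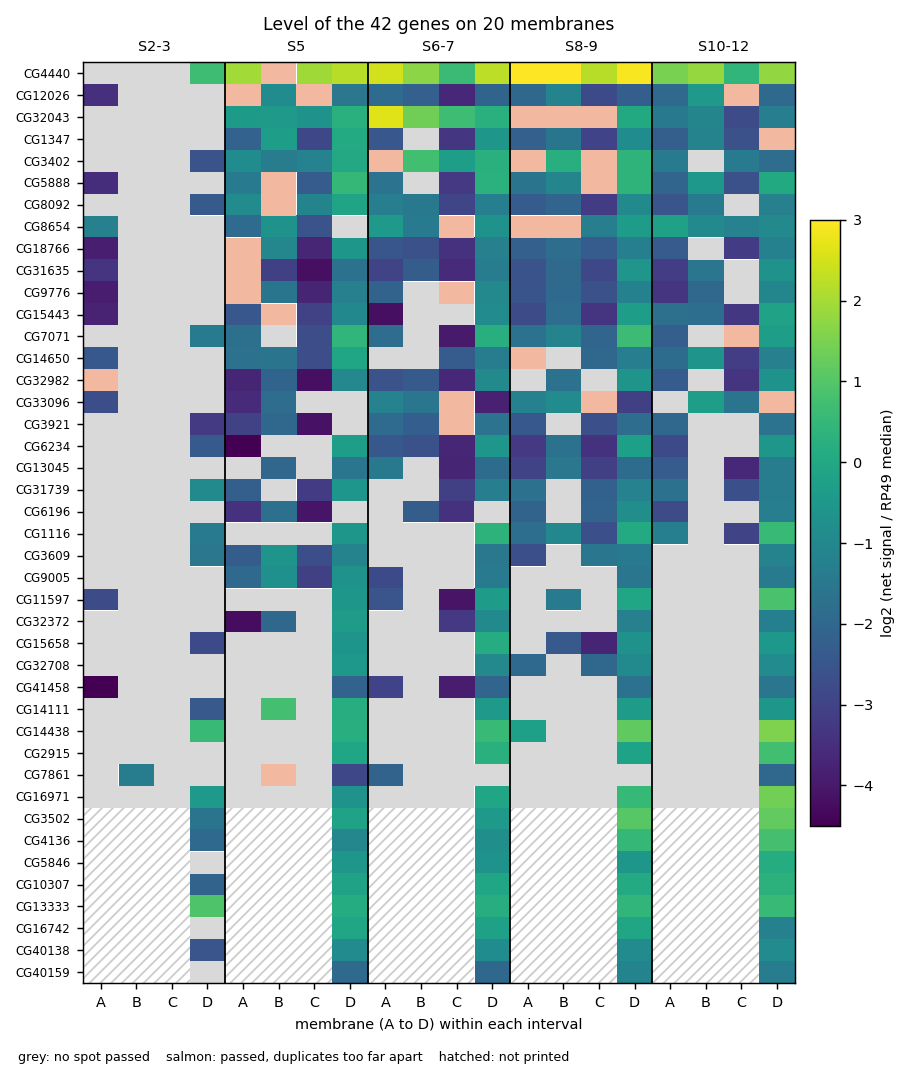
Log2 level relative to RP49 (colour, with values past an end of the scale in its end colour) of the 42 genes (y axis) on the 20 membranes (x axis, A to D within each interval). Grey cells did not pass, salmon cells passed but their duplicate spots differed too much to be used, and hatched cells were not printed; S2-3, which chose the genes, is mostly grey, and the D column is filled for most genes in every later interval.

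The median log2 level of the dim genes was -1.26, -1.64, -1.23 and -1.28 from S5 to S10-12, beside -1.50, -1.59, -1.24 and -1.22 over all library genes measured. The differences of these medians changed sign under 1, 4, 7 and 2 of 11 alternative settings, and no direction is given for them. Genes that passed had to be bright enough to pass, so these medians leave out the membranes on which a gene was dim. Among the 20 dim genes measured in all 4 later intervals, the highest mean log2 level fell on S5 in 6, S6-7 in 1, S8-9 in 8 and S10-12 in 5 when scaled to RP49, and in 4, 4, 2 and 10 when scaled to the 75th percentile. The order of the intervals thus rested on the scaling.

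The choice for low S2-3 signal favors higher values later, and the counts below have no share over all library genes beside them. Genes that passed on 1 S2-3 membrane could be set against the same letter later, as a description only. The log2 difference from S2-3 was above 0 for 17 of 22 such genes at S5, with a median of 1.36, and for 24 of 28, 23 of 25 and 24 of 26 in the next intervals, with medians of 1.56, 1.51 and 1.49. The exceptions were CG13333 in all intervals, CG31739 from S6-7 to S10-12, CG14438 at S5 and S6-7, CG8654, CG33096 and CG16971 at S5 and CG15443 at S6-7. For the 11 genes under the rule on every S2-3 membrane the fold is given over an S2-3 reference. This reference is, for each S2-3 membrane, the higher of the lowest library signal that passed there and the signal of the gene itself. The mean later log2 level over all membranes was set against it. The reference is not the detection limit of the gene, so these folds are not lower bounds. On A, for instance, CG32043 failed the rule with net signals of 0.0246 and 0.0281, above the lowest passing 0.003809. Folds above 1 were had for 9, 11, 10 and 9 of the 11 genes from S5 to S10-12. The largest belonged to CG32043, CG16742, CG40159 and CG1347.

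The later intervals played no part in the choice of the genes, so the 6 comparisons among them were tested with limma over all library features. The test needed 2 or more measured membranes in each of the compared intervals. This held for 20 of the 42 genes in all 6 comparisons and for 6 in some, and 16 could not be tested in any, among them the 8 printed on D alone. No dim gene passed an adjusted p of 0.05 in any comparison of this fit, which takes no account of the membrane letter. With the letter as a block CG8092 passed from S5 to S8-9, where 4.85% of features did. CG32043 and CG3402 passed with the block from S6-7 to S10-12, where 6.13% of features did. The counts that follow leave the block out.

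From S5 to S6-7, 0 of 23 dim genes passed (1.35% of 222 features did), and CG32043 alone had an unadjusted p under 0.05 (3.6% of features). From S6-7 to S8-9, 0 of 21 passed, with 0% of features passing, and 0 of 21 at the unadjusted p (0.943%). From S8-9 to S10-12, 0 of 21 passed (0% of features), with CG3402 and CG4440 under the unadjusted p (2.99%). Against S5, 0 of 21 passed at S8-9 (0.485% of features) and 0 of 21 at S10-12 (0.962%), and at the unadjusted p the counts were 0 and 0 beside 4.85% and 7.21% of features. From S6-7 to S10-12, 0 of 21 passed (0% of features), with CG32043 and CG3402 under the unadjusted p (4.72%). These shares lie near the background of the library, and other settings called between 0 and 2 dim genes per comparison.

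The median log2 differences of the tested dim genes had the sign of those of all features in each comparison. From S5 to S6-7 they were -0.20 for the dim genes and -0.12 for all features, from S6-7 to S8-9 0.45 and 0.43, and from S8-9 to S10-12 -0.07 and -0.04. Against S5 they were 0.30 and 0.30 at S8-9 and 0.05 and 0.31 at S10-12, and from S6-7 to S10-12 they were 0.21 and 0.35. The median standard error of a dim gene's log2 difference was between 0.86 and 0.93 in this fit, which takes no account of the letter.

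**Figure D3:**
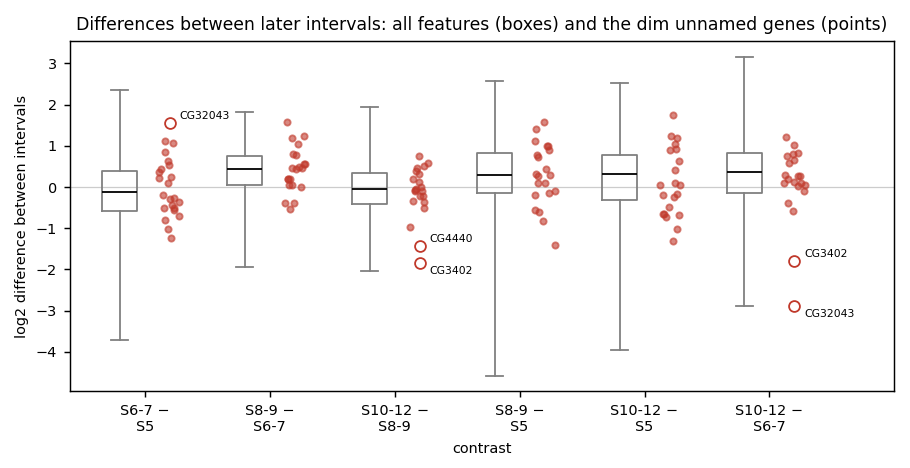
Log2 difference between later intervals (y axis) in 6 comparisons (x axis), with boxes for all library features (line, median; box, quartiles; whiskers, full range) and points for the dim unnamed genes tested. Open points had an unadjusted p under 0.05; the lowest is CG32043 from S6-7 to S10-12, at -2.88.

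CG32043, which the study listed without an annotation and which RefSeq now holds under CG44838, carried the largest of these differences. Its log2 level on membranes A to D was -0.42, -0.48, -0.67 and 0.26 at S5. At S6-7 it was 2.63, 1.39, 0.66 and 0.25, and at S10-12 it was -1.47, -1.08, -2.77 and -1.29. The S10-12 value on B came from the only duplicate spot that passed, and both spots averaged gave -1.43. The gene was thus higher in the gastrula than at S5 on A, B and C and lowest at S10-12 on all 4 letters, and S6-7 and S10-12 did not overlap. From S6-7 to S10-12 the log2 difference was -2.88 ± 0.70 (SE, n = 4 and 4, a 7.37-fold lower mean), with an unadjusted p of 0.000389 and an adjusted p of 0.0825 in limma.

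CG32043 was lower at S10-12 than at S6-7 within each letter, with log2 differences of -4.10, -2.46, -3.43 and -1.54 on A to D. With the membrane letter as a block the adjusted p was 0.00034 (log2 difference -2.88 ± 0.44 SE), where 6.13% of features passed. Without membrane D the log2 difference was -3.33 (adjusted p = 5.1e-05), where 1.99% of features passed. The fit without D used a spread shared by all features, so its p does not measure the spread of CG32043 itself. From S5 to S6-7 the log2 differences were 3.06, 1.87 and 1.34 on A, B and C but -0.01 on D. The limma difference was 1.56 ± 0.71 (SE, adjusted p = 0.981). Without membrane D it was 2.09 ± 0.66 (SE and adjusted p of 0.024 from that shared spread), where 8.05% of features passed.

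At S8-9 the 3 membranes A to C of CG32043 passed, but the duplicate spots differed 3.53-, 2.43- and 4.54-fold and were not used, so that only D was measured (0.07). Averaged all the same, they gave log2 levels of 1.41, 1.02 and 0.84, which lay below S6-7 on A and B, above it on C and above S10-12 on all 3. Over the S2-3 reference the folds were 6.93, 20.5, 15.6 and 2.61 from S5 to S10-12, with all 4 membranes passing each time. No spot passed at S2-3, so these folds restate the choice of the gene and carry no test.

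CG3402, for which no role is given here, had log2 levels of -0.85, -1.32, -1.17 and 0.02 on A to D at S5. On B, C and D at S6-7 they were 0.74, -0.30 and 0.26, on B and D at S8-9 0.21 and 0.37, and on A, C and D at S10-12 -1.43, -1.41 and -1.82. The S10-12 value on C came from the only duplicate spot that passed, and both spots averaged gave -2.035. S10-12 did not overlap S5, S6-7 or S8-9, and lay below each of them. The log2 difference from S6-7 to S10-12 was -1.79 ± 0.76 (SE, unadjusted p = 0.0276, adjusted p = 0.831 in limma), and -1.80 ± 0.49 with the letter as a block (adjusted p = 0.029). From S8-9 to S10-12 it was -1.84 ± 0.83 (unadjusted p = 0.0367, adjusted p = 1.00). These comparisons shared few letters, C and D for S6-7 (-1.11 and -2.08) and D alone for S8-9 (-2.18). The clones of CG3402 and CG32043 both came from well G09 of their plates.

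**Figure D4:**
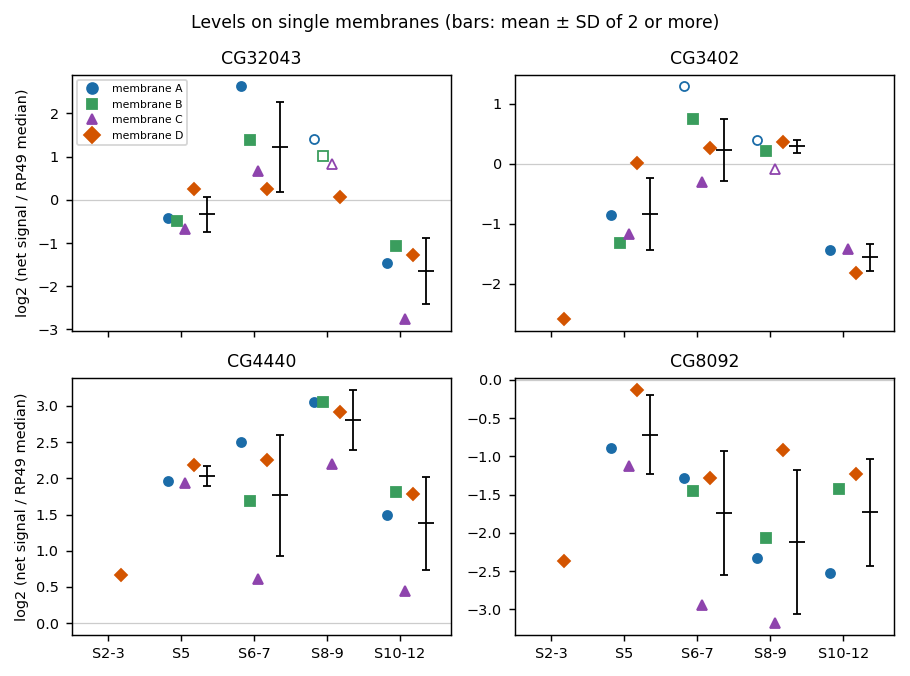
Log2 level relative to RP49 (y axis) of CG32043, CG3402, CG4440 and CG8092 in the 5 intervals (x axis), with 1 point per membrane and bars for the mean ± SD where 2 or more membranes were measured; hollow points passed but their duplicate spots differed too much and stay out of the mean. CG32043 peaks at S6-7 on membrane A (2.63), CG3402 and CG32043 are lowest at S10-12 among the later intervals, and CG4440 is highest at S8-9.

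Among the genes annotated as secreted or membrane proteins, CG4440, which carries a predicted signal peptide, had 5 clones and passed on every later membrane. Its log2 level at S5 was 1.96, 1.94 and 2.19 on A, C and D, and at S6-7 it was 2.50, 1.69, 0.61 and 2.26 on A to D. At S8-9 it was 3.06, 3.06, 2.19 and 2.92, and at S10-12 1.49, 1.81, 0.44 and 1.78. S8-9 was the highest interval on every letter, by 0.56 to 1.58 over S6-7, and did not overlap S10-12. Letters A to C carried 1 of the 5 clones, and D gave the mean of clones with differing courses. From S8-9 to S10-12 the log2 difference was -1.43 ± 0.64 (SE, n = 4 and 4, unadjusted p = 0.0343, adjusted p = 1.00 in limma), lower on 4 of 4 letters, and the adjusted p was 0.0596 with the letter as a block.

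The clones of CG4440 gave different courses on membrane D. At S2-3, 4 of its 5 clones passed there, with log2 levels from -4.75 in the clone that did not pass to 2.03, so the gene was dim on A to C and not on D. Clone 1 differed from its own S2-3 log2 level by 1.00, -0.20, 0.63 and 0.03 from S5 to S10-12. Clone 2, the one also printed on A to C, differed by 5.08, 4.60, 5.74 and 2.44. Clone 5, the one that did not pass at S2-3, gave 3.06 at S8-9 and 3.19 at S10-12. Clones 1, 4 and 5 were highest at S5, S6-7 and S10-12, and clones 2 and 3 at S8-9. All 5 lay closest together at S8-9, between 2.67 and 3.19. What separates the clones was not tested.

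CG13333, a predicted secreted protein now named link, was printed on D alone as 13 clones and again among the control spots. Of its 26 library spots 3 passed at S2-3 and 24, 25, 23 and 24 later. The filtered log2 level of 0.94 at S2-3, above the later 0.15, 0.16, 0.42 and 0.55, came from the 2 clones with passing spots. With spots under the rule included, the median over all 13 clones was -4.27 at S2-3 and 0.12, 0.21, 0.08 and -0.97 later, and the 4 control copies passed in 0 cases at S2-3 and 4 of 4 later, with log2 levels of -3.79, -1.14, -0.80, 0.39 and 0.51. The filtered values of CG13333 were thus higher at S2-3 than later, and the median of its clones and the control copies were lower.

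**Figure D5:**
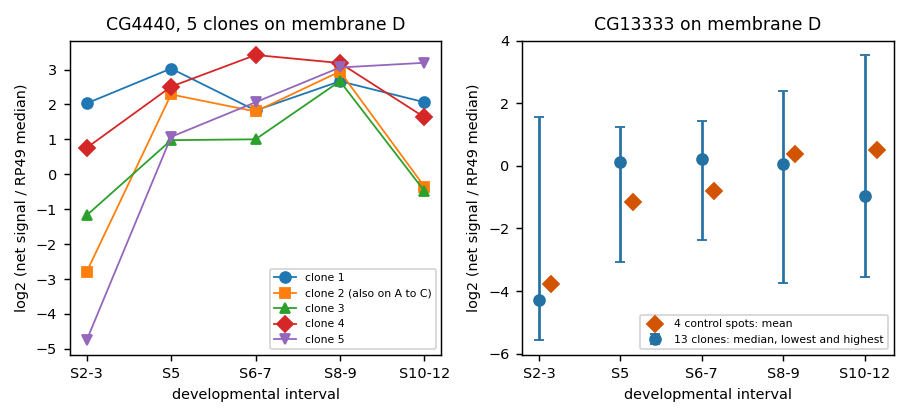
Log2 level relative to RP49 on membrane D (y axis) in the 5 intervals (x axis) for the 5 clones of CG4440 (left) and for CG13333 (right; median, lowest and highest of 13 clones, and the mean of 4 control spots), with spots under the signal rule included. Clone 1 of CG4440 starts at 2.03 and clone 5 at -4.75; the control spots of CG13333 lie at -3.79 at S2-3 and at 0.51 at S10-12.

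CG6234 (Dtg), a target gene of the BMP ligand Dpp with a predicted signal peptide and membrane span, had log2 levels of -4.86 on A and -0.32 on D at S5. At S6-7 they were -2.42, -2.65, -3.71 and -0.57 on A to D, at S8-9 -3.24, -1.66, -3.39 and -0.27, and at S10-12 -2.83 and -0.53 on A and D. Membrane D was the highest in each interval and the intervals overlapped. CG14111 was measured on B and D at S5 (0.77 and 0.16) and later on D alone (-0.44, -0.37 and -0.54).

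CG5888, with leucine-rich repeats, had log2 levels of -1.45, -2.31 and 0.49 on A, C and D at S5 and -1.63, -3.27 and 0.30 at S6-7. They were -1.62, -1.08 and 0.39 on A, B and D at S8-9 and -2.05, -0.49, -2.65 and 0.07 on A to D at S10-12. All 4 intervals overlapped. Within letters S5 was the highest on each letter it shared, by 0.18, 0.96 and 0.20 over S6-7 on A, C and D, and the log2 difference from S5 to S8-9 was 0.32 ± 0.99 (SE, adjusted p = 0.994 in limma) and -0.36 ± 0.45 with the letter as a block (adjusted p = 0.725). CG2915, annotated as a metallocarboxypeptidase with a signal peptide, passed on membrane D alone in each later interval, at -0.05, 0.26, -0.16 and 0.74. Its folds over the S2-3 reference ran from 1.03 at S6-7 to 2.57 at S10-12, with 1 of 4 membranes passing each time.

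CG3921 (bark), a protein of tricellular junctions, had log2 levels of -3.03, -1.97 and -4.14 on A, B and C at S5, and of -1.88, -2.25 and -1.64 on A, B and D at S6-7. The log2 difference of 1.12 ± 0.81 (SE, adjusted p = 0.981 in limma) set A to C against a group with D in it, and on the shared letters it was 1.15 on A and -0.28 on B. At S8-9 it gave -2.44, -2.68 and -1.83 on A, C and D and at S10-12 -1.99 and -1.64 on A and D. From S5 to S10-12 the log2 difference was 1.23, and 0.87 with the letter as a block (adjusted p = 0.379). CG12026 (Tmhs), a multipass membrane protein, gave -0.89 and -1.54 on B and D at S5 against -1.89, -2.21, -3.66 and -2.09 on A to D at S6-7, a log2 difference of -1.25 ± 0.86 (SE, adjusted p = 0.981) between ranges that did not overlap. On the letters measured in both, B and D, it was -1.32 and -0.55.

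CG8654, a predicted transporter of the major facilitator family, was in the set by the narrowest margin. Its log2 level was -1.86, -0.67 and -2.57 on A, B and C at S5, -0.45, -1.44 and -0.67 on A, B and D at S6-7, -1.28 and -0.35 on C and D at S8-9 and -0.21, -0.91, -1.18 and -0.97 on A to D at S10-12. All intervals overlapped, and on A, the membrane that passed at S2-3 with -1.25, S5 was lower and S10-12 higher. CG33096 gave -3.61 and -1.82 on A and B at S5 and -0.31 and -1.61 on B and C at S10-12. Its log2 difference of 1.76 ± 1.14 (SE, adjusted p = 0.946 in limma) shared letter B alone, where it was 1.51, and was 2.12 ± 0.75 with the letter as a block (adjusted p = 0.0996).

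Of the nuclear proteins, CG8092 (row), a zinc finger protein related to woc, had its highest mean log2 level at the cellular blastoderm. Its log2 level was -0.89, -1.12 and -0.13 on A, C and D at S5 and -1.28, -1.46, -2.95 and -1.28 on A to D at S6-7. It was -2.33, -2.06, -3.18 and -0.91 at S8-9 and -2.53, -1.43 and -1.23 on A, B and D at S10-12. S5 overlapped S8-9 through membrane D, and did not overlap S6-7 or S10-12. The log2 difference from S5 to S8-9 was -1.40 ± 0.74 (SE, n = 3 and 4, unadjusted p = 0.0707, adjusted p = 0.994 in limma), with -1.44, -2.06 and -0.78 on A, C and D. With the letter as a block it was -1.51 ± 0.41 (adjusted p = 0.0356), where 4.85% of features passed.

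CG4136 (Vsx1), a homeodomain transcription factor, was printed on D alone and gave log2 levels of -1.95, -1.04, -0.76, 0.49 and 0.79 from S2-3 to S10-12. CG14438 (sov), a zinc finger protein of heterochromatin, gave 0.59, 0.22, 0.55, 1.17 and 1.54 on membrane D. Both were highest at S10-12 on D. On membrane A, the other membrane that measured CG14438, it gave -0.26 at S8-9 alone, so the course of either gene has no replicate check. CG9005 (atos) passed on 4 membranes at S5, with -1.95, -0.74, -3.07 and -0.65, and on D alone at S8-9 (-1.56) and S10-12 (-1.37).

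Among genes of traffic, autophagy and the cytoskeleton, CG16742 (FAM21), a subunit of the WASH complex that drives actin on endosomes, did not pass at S2-3 and gave -0.06, -0.21, -0.05 and -1.22 on D later. Its folds over the S2-3 reference on that membrane were 12.7, 11.5, 12.9 and 5.71. CG1347 (Atg17), of the complex that starts autophagy, passed on 15 of 16 later membranes. Its folds over the S2-3 reference were 3.79, 2.27, 2.63 and 2.48 from S5 to S10-12, with 4, 3, 4 and 4 membranes passing. CG7861 (Tbce), a tubulin folding factor that passed on few membranes, was measured on 1 membrane each at S5 (D, -2.86), S6-7 (A, -2.11) and S10-12 (D, -1.96).

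Of the enzymes, CG18766, with an NAD(P)-binding fold, had mean log2 differences between -0.70 and 0.55 over the 6 comparisons, with overlapping intervals throughout. CG31739 (AspRS-m), a mitochondrial aspartyl-tRNA synthetase, gave log2 levels of -2.22, -3.17 and -0.56 on A, C and D at S5 and of -3.08 and -1.28 on C and D at S6-7. On A, C and D they were -1.72, -2.17 and -1.16 at S8-9 and -1.69, -2.68 and -1.31 at S10-12. Against S5, A and C were higher at S8-9 and S10-12 and D was lower, and the limma difference was 0.30 ± 0.86 (SE, adjusted p = 0.994) at S8-9.

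The other dim genes, like those above, had no adjusted p under 0.05 in the limma fit that takes no account of the letter. From S6-7 to S8-9 the largest positive differences were CG11597 at 1.57 ± 1.09 and CG32982 at 1.23 ± 1.00 (log2, SE) and the largest negative one was CG9776 at -0.54 ± 0.92, each with an adjusted p of 0.993 in limma. CG11597 was measured at S6-7 on A, C and D (-2.51, -4.09 and -0.36) and at S8-9 on B and D (-1.42 and -0.08), and the letter they share gave 0.27. CG31635 was higher on every shared letter from S5 to S6-7 (3 letters) and from S6-7 to S8-9 (4 letters, by 0.39 to 0.77), with an adjusted p of 0.981 and 0.993. From S5 to S8-9 it was higher on all 3 shared letters, by 1.11 to 1.32, with a log2 difference of 1.00 ± 0.83 (SE, adjusted p = 0.994 in limma) and of 1.23 ± 0.38 with the letter as a block (adjusted p = 0.0593). CG6196 (Trs33), of the TRAPP complex of membrane traffic, gave 1.40 ± 0.86 (SE, adjusted p = 0.994) in the same comparison and an adjusted p of 0.106 with the block, with 1.30 on A and 1.95 on C.

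The genes printed on membrane D alone have 1 value per interval. CG3502 gave log2 levels of -1.61, -0.17, -0.48, 1.06 and 1.20 from S2-3 to S10-12, and CG10307, annotated as receptor-like, -2.12, -0.18, -0.10, 0.09 and 0.33. CG40138 stayed between -0.89 and -0.86 after -2.53 at S2-3. CG40159 and CG5846 did not pass at S2-3. Their later folds over the S2-3 reference were 2.65, 2.54, 4.6 and 3.86 for CG40159 and 2.23, 2.02, 2.19 and 3.52 for CG5846. Of the 2 control copies of CG5846, 0 passed at S2-3, S5 and S6-7, 1 at S8-9 and 2 at S10-12. From S5 to S10-12 the log2 level of their mean was -5.83, -4.91, -2.92 and -2.095. The library clone gave -0.52, -0.66, -0.54 and 0.14, and what separates the 2 was not tested. From S5 to S10-12 on D the median log2 difference of these 8 genes was 0.52 (6 of 8 above 0), beside 0.11 over the 37 dim genes measured on D and 0.05 over all library genes, with 1 membrane per interval and no test.

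Lists of annotated functions were drawn from genes the study had selected on these same membranes, so they are not independent of them. The 4 predicted secreted or membrane proteins passed on 37 of 52 later membranes, the 3 receptors and peptidases on 23 of 36, and the 1 transporter and 1 metabolic enzyme on 15 of 16 each. The homeodomain gene passed on 4 of 4, the 2 genes without annotation on 20 of 20 and the 30 genes in no list on 288 of 432. In limma 2 of the 4, 1 of the 3, the transporter, the enzyme, 1 of the 2 and 20 of the 30 could be tested, and the homeodomain gene could not. Of those tested 0 passed in the 6 comparisons without the letter as a block. Those with an unadjusted p under 0.05 there were CG4440, CG32043 and, in no list, CG3402.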

How the data were processed

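Spot intensity values were deposited by the authors for each membrane as mean signal, local background mean and SD, and net signal, measured by phosphorimaging with background subtracted and no normalization. A spot passed at 1 background SD above background with net signal above 0. Where both duplicates passed, those with a coefficient of variation over 0.5 were left out. Where only 1 of them passed, it was used alone, however far the other lay from it. The filter called qcom in the Methods was not used. The Methods scale to RP49 and dap, but membrane D carries no dap, so RP49 alone was used. Values of all clones of 1 gene were averaged before taking log2.

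limma 3.58.1 in R 4.3.3 was used for all p-values (the study used SAM): 20 membranes in 1 fit, a mean per interval, Benjamini-Hochberg adjustment over all features of a comparison, and changed at an adjusted p under 0.05. The fit was tested on simulated data. Tables and figures were made with Python 3.11.15, pandas 2.3.3, NumPy 2.4.6, SciPy 1.17.1 and matplotlib 3.10.9. The number of membranes limits the precision. With interval means removed, membranes of the same letter in 2 later intervals correlated at over 0.1 in 23 of 24 pairs (-0.05 to 0.80, median 0.39). The exception was B of S5 and S6-7, and in that comparison A, C and D correlated at 0.37, 0.36 and 0.54. The Methods name 2 independent events of labeling and hybridization, and which membranes shared an event is not given in the sources used here.

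Named are genes changed in any comparison, the 6 with the highest mean level, those the study names and the 4 largest folds over the S2-3 reference. Also named are the 2 largest differences each way in 4 comparisons, the 4 dimmest and the 4 on each side of the rule. Other genes given with values, and the series of clones and letters, were picked after their values were seen, and all members and lists were chosen with earlier results of these data known. Alternatives were other scalings (dap, RP49 with actin and tubulin, 75th percentile, quantiles), normexp, other signal and duplicate filters, the median of clones, 3 membranes per interval, the 2 intervals alone, each letter left out and the letter as a block. Scaling to the RP49 mean and the split of A to C from D were chosen after seeing the data. The authors' processed table, whose features have no names, was not used here. Gene names and chromosome arms came from RefSeq (Release 6), and no coordinates are printed here.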

Additional observations from a re-analysis of the deposited data

Results flagged for a closer look

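In 33 sets of 4 membranes, 1 gene in 1 later interval each, 2 held a membrane far from the other 3, and chance does this in about 1 of 20 sets. For CG4440 at S8-9, membrane C gave a log2 level of 2.19 beside 2.92 to 3.06 on the others, a gap of 0.84 of the whole range. For CG8092 at S6-7, membrane C gave -2.95 beside -1.46 to -1.28, a gap of 0.891 of the range. Membrane C was the lowest in both cases. The log2 difference of CG4440 from S8-9 to S10-12 was -1.43 with membrane C and -1.32 without it, and that of CG8092 from S6-7 to S8-9 was -0.38 with it and -0.43 without it.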

How the results depend on the processing

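No dim gene was called between later intervals as reported, and the counts moved to 1 or 2 under some settings. For S6-7 against S5, leaving out a letter gave 0 to 1 (1, CG32043, without D). For S8-9 against S5 the count was 1, CG8092, with 75th percentile scaling, quantile normalization and the letter as a replicate block. For S10-12 against S5 it was 1, also CG8092, with quantile normalization (log2 difference -1.74). For S10-12 against S6-7 it was 1, CG32043, with 75th percentile scaling, quantile normalization, normexp, a rule of 2 background SDs and no duplicate filter, 2 with the replicate block, which added CG3402, and 0 to 1 when a letter was left out (1 without D). The replicate block changed no other call. The fit without D used a spread shared by all features, so its calls do not measure the spread of the single gene. With a rule of 2 background SDs 73 genes would be chosen in place of 42. Of 228 recomputed values of the 16 largest differences of named genes, 220 kept direction and side of the threshold and 2 passed it anew; the calls above in S8-9 against S5 and S10-12 against S6-7 lie outside that tally. The direction turned for CG3921 with dap scaling on A to C (S6-7 against S5, -1.82; S8-9 against S6-7, 1.34) and with the replicate block (S8-9 against S6-7, 0.046), for CG9776 with normexp (S8-9 against S6-7, 0.58), for CG33096 with normexp (S10-12 against S8-9, -0.084) and for CG12026 with 2 background SDs (S10-12 against S8-9, -0.019). The cause was not tested. Of clones with both spots passing, duplicates over the limit made up 6.6% at S2-3 and 8.9% to 23.4% later on A to C, against 0% to 2.8% on D. Of the 42 genes, 16 had too few passing membranes for any test.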
